A study of Mus musculus with 17 samples.

Results

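The smooth muscle contractile genes are 10 genes of the actomyosin apparatus of visceral smooth muscle, measured here in the mouse colon. They include Acta2 and Actg2 (the smooth muscle actins), Myh11 (smooth muscle myosin heavy chain) and Mylk (myosin light chain kinase). The others are Tagln, Cnn1, Smtn and Lmod1 (actin-binding proteins), Des (the muscle intermediate filament protein) and Synpo2 (an actin-bundling protein). The 10 genes were chosen by name, and each was followed by the probe with the highest mean log2 value in the authors' processed table. All 10 were on the array, with 25 probes, among 25029 genes or transcripts tested, and each chosen probe was well above the background on 17 of 17 arrays.

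The colons came from male mice on the C57BL/6J background, either wild-type (WT) animals bought at 6 weeks of age or Pxr-/- animals bred in house, which lack the pregnane X receptor (PXR, encoded by Nr1i2). After 2 weeks of acclimatization they received pregnenolone 16α-carbonitrile (PCN, a ligand of mouse PXR) in corn oil, at 100 mg/kg by daily intraperitoneal injection for 4 days, or corn oil alone (CONT). The mice had free access to food and were killed 6 h after the last injection, at zeitgeber time 6 (hours after lights on). The article describes mice at this time as semi-fasted. The Pxr-/- CONT group held 5 arrays, and WT CONT, WT PCN and Pxr-/- PCN held 4 each. Both genotypes therefore differ in origin as well as in Pxr, and origin and genotype cannot be told apart.

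In the colon wall, smooth muscle forms the circular and longitudinal layers of the muscularis propria, the thin muscularis mucosae and the walls of blood vessels. Contraction starts when calcium and calmodulin activate myosin light chain kinase, which phosphorylates the regulatory light chain and lets myosin pull on actin filaments. Calponin (Cnn1), transgelin (Tagln), smoothelin (Smtn) and leiomodin (Lmod1) bind actin and shape or regulate the filaments, and desmin (Des) links the contractile units to the membrane and to each other. Most of these genes are switched on by serum response factor (Srf) with its coactivator myocardin (Myocd). Of these, Srf binds a DNA element named the CArG box.

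Some facts of the arrays touch all results. Arrays Pxr-/- PCN 2 and WT PCN 4 were near-identical (SD of the log2 difference 0.172 over 38646 probes), as were WT PCN 3 and Pxr-/- CONT 2 (0.198), while the other pairs among 136 gave 0.297 to 0.616. The contractile genes differed on average by 0.0448 and 0.0601 within these 2 pairs, against 0.0888 to 0.948 within the other pairs. Because each near-identical pair joins different groups, every comparison is given with all 17 arrays and without these 4. Whether each of the 4 arrays holds the sample that its label names cannot be told from the files, so group values and n are given as labelled. The transcripts of 8 pancreatic enzyme genes were abundant on WT CONT 4, WT PCN 1 and 3 and Pxr-/- CONT 2 (mean log2 signal 11.3 to 17.6, against 6.72 to 7.16 on the other arrays). The Nr1i2 probe gave 11.97 to 12.31 in WT CONT, 11.10 to 12.44 in WT PCN, 10.39 to 11.61 in Pxr-/- CONT and 10.95 to 11.93 in Pxr-/- PCN. Every WT CONT array lay above every Pxr-/- array and the WT PCN arrays overlapped with the Pxr-/- arrays, and since the deleted part of the gene is not given in the sources used here, it does not check the labels. The arrays were washed in 2 baths, which the model includes.

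The probe for Mylk is shown because it lies in coding sequence and because this gene encodes the kinase that starts the contractile cycle. Whether every transcript that this probe detects encodes the kinase was not tested. The probe maps to chr16:34996839-34996898 on the plus strand of mm9.
Mylk probe: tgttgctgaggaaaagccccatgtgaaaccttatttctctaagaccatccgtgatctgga
The coding sequences of actins are close to each other, and signal from another actin transcript on the actin probes was not tested. On chromosome 16 of mm9 the Mylk probe lies 3.252 Mb and the Myh11 probe 24.052 Mb from the Nr1i2 probe.

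RefSeq promoter windows of the GRCm38.p6 assembly (250 bases before to 50 after the start) were matched for 7 of the 10 genes, all but Actg2, Myh11 and Tagln. The CArG box in its exact form reads CC, a run of A or T and GG over 10 bases, and is its own reverse complement in form. This exact form was found in 0 of the 7 windows, and in 1.63% of 32851 windows. Stretches that miss the box by 1 letter were found in 2 of the 7 windows, those of Acta2 and Lmod1, and in 19.9% of all windows. Both genes held 2 such stretches, as 3.38% of all windows did. The upstream 250 bases of these genes are shown because they hold the stretches, which are in capitals. They lie 84 and 34 bases before the start of Acta2 (chr19:34255374-34255623, minus strand) and 189 and 164 bases before that of Lmod1 (chr1:135324563-135324812, plus strand).
Acta2 upstream: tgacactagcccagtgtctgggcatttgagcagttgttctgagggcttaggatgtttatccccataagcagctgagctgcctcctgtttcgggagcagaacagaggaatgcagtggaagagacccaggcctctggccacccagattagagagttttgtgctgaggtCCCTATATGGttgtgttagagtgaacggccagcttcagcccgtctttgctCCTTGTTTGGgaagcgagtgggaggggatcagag
Lmod1 upstream: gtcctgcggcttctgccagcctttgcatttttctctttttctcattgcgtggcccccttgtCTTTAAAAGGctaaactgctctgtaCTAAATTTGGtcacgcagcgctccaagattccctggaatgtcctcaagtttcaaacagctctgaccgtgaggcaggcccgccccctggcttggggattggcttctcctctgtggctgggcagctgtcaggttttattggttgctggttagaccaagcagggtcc
These matches describe letters in the windows, and binding was not measured. Whether the stretches 1 letter off the exact form are sites of Srf was not tested, so a window without the exact form may still hold one.

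The contractile genes varied together from array to array. Over 17 arrays, the 45 pairs of genes had a Pearson r of 0.68 to 0.97 (median 0.84), with a median of 0.82 over the 13 arrays left without the near-identical ones and 0.85 over deviations from the group means. These correlations describe arrays that share RNA and normalization, and they carry no test. Myh11 followed the mean of the other 9 genes most closely (r = 0.96) and Lmod1 least (r = 0.79). The strongest pair was Myh11 with Mylk (r = 0.97), and the weakest was Des with Lmod1 (r = 0.68).

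As mean deviation of the 10 genes from their own means over all arrays, Pxr-/- CONT 4 (0.48 on the log2 scale) and WT CONT 4 (0.47) were highest, followed by WT PCN 3 (0.36) and Pxr-/- CONT 2 (0.34). The lowest were Pxr-/- PCN 1 (-0.47) and Pxr-/- PCN 3 (-0.43), and WT CONT 2 and 3 came next (both -0.27). In Pxr-/- CONT, arrays 1 (-0.13) and 5 (-0.12) were below the mean, so both control groups held arrays on either side of it. Among the 4 Pxr-/- PCN arrays, PCN 2, one of the near-identical arrays, was above the mean (0.07). In bulk RNA, fewer smooth muscle cells in a sample and less RNA per cell cannot be told apart.

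**Figure D1:**
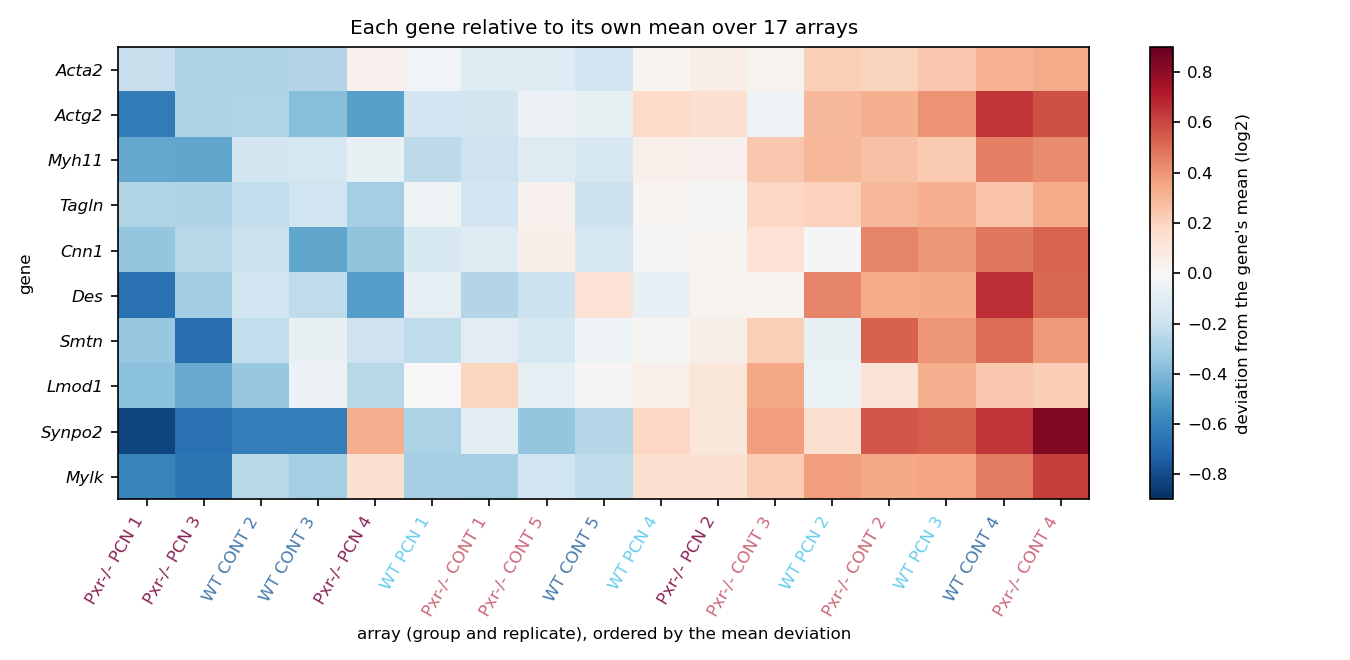
Heat map of the log2 deviation of each contractile gene from its own mean (colour) on each of the 17 arrays, ordered by the mean deviation of the 10 genes. Columns are coloured alike from top to bottom in most arrays, from Pxr-/- PCN 1 at -0.47 on the left to Pxr-/- CONT 4 at 0.48 on the right.

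The genes differed in how much they varied within groups. Tagln (within-group SD 0.19), Acta2 and Lmod1 (both 0.20) varied least, and Mylk (0.38) and Synpo2 (0.51) most. The median SD of the 10 genes was 0.289, against 0.173 over all probes tested, at the 81.4th percentile. Synpo2 ranged over 1.66 on the log2 scale between its lowest and highest array, and Acta2 over 0.62.

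The effect of PCN was compared within each genotype, since PXR is the receptor that PCN binds in mice. In Pxr-/- mice all 10 genes were lower with PCN than with corn oil, although no gene passed the test, and the differences ran from -0.16 (Acta2) to -0.54 (Synpo2) on the log2 scale, with a median of -0.42. Over all probes tested the median was 0.01, and 48% of probes were lower. None of the 10 was called by limma, for which the adjusted p had to be 0.05 or less and the fold change above 1.5, and 0.00517% of all probes were called. At an unadjusted p under 0.05, 6 of the 10 were lower and 0 higher, against 3.95% of all probes lower, and the smallest adjusted p of the 10 was 0.535. Because the 10 genes move together from array to array, they are not 10 independent observations of the mice.

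Lmod1, a leiomodin that nucleates actin filaments, had the smallest adjusted p. Its log2 signal was 7.59, 7.51, 7.74, 7.61 and 7.30 in Pxr-/- CONT 1 to 5, and 7.02, 7.50, 6.94 and 7.14 in Pxr-/- PCN 1 to 4. PCN 2 lay among the controls and the other PCN arrays lay below them all. The difference was -0.40 ± 0.14 (SE, 95% interval -0.69 to -0.11, limma adjusted p = 0.535), or 0.757 times the control signal.

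Tagln, the actin cross-linker transgelin, gave 16.88, 17.36, 17.25, 17.39 and 17.09 in Pxr-/- CONT 1 to 5. In Pxr-/- PCN 1 to 4 it gave 16.79, 17.05, 16.78 and 16.75. The groups overlapped only through PCN 2, which exceeded CONT 1. The difference was -0.36 ± 0.13 (SE, limma adjusted p = 0.548).

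Cnn1, which restrains the myosin motor on actin, was at 16.78, 17.34, 17.03, 17.43 and 16.96 in the Pxr-/- CONT arrays and at 16.55, 16.92, 16.65 and 16.54 in the Pxr-/- PCN arrays. Again PCN 2 alone exceeded the lowest control. The difference was -0.45 ± 0.18 (SE, limma adjusted p = 0.628).

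Smtn, a cytoskeletal protein of contractile smooth muscle cells, was at 13.98, 14.61, 14.29, 14.46 and 13.92 in Pxr-/- CONT and at 13.74, 14.13, 13.40 and 13.89 in Pxr-/- PCN. Its difference was -0.46 ± 0.19 (SE, limma adjusted p = 0.640). Only PCN 2 reached into the range of the controls, and PCN 3 gave the lowest Smtn signal of the Pxr-/- PCN group.

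Des was at 12.83, 13.43, 13.12, 13.61 and 12.90 in Pxr-/- CONT and at 12.42, 13.12, 12.78 and 12.59 in Pxr-/- PCN. Its difference was -0.46 ± 0.21 (SE, limma adjusted p = 0.671). As for Smtn, PCN 2 was the highest Pxr-/- PCN array, and only that array exceeded the lowest control.

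Myh11, the motor itself, was at 13.63, 14.08, 14.06, 14.24 and 13.70 in Pxr-/- CONT and at 13.35, 13.85, 13.35 and 13.75 in Pxr-/- PCN. Its difference was -0.38 ± 0.17 (SE, limma adjusted p = 0.659). For Myh11 the PCN arrays 2 and 4 both lay within the range of the controls.

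The remaining genes had p-values over 0.05. Actg2, the main actin of visceral smooth muscle, differed by -0.46 ± 0.22 (SE, limma adjusted p = 0.691). Mylk differed by -0.39 ± 0.24, Synpo2 by -0.54 ± 0.32 and Acta2 by -0.16 ± 0.14 (SE). Their 95% intervals ran from -0.90 to 0.11 for Mylk, from -1.23 to 0.15 for Synpo2 and from -0.45 to 0.13 for Acta2. Single arrays moved these estimates. Acta2 was at -0.0812 without Pxr-/- CONT 4 and -0.102 without Pxr-/- PCN 3, Mylk at -0.229 without Pxr-/- PCN 3 and Synpo2 at -0.334 without Pxr-/- PCN 1.

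Without the near-identical arrays the Pxr-/- groups hold 4 CONT and 3 PCN arrays. All 10 genes were lower, with a median of -0.48, and 4 of them at an unadjusted p under 0.05, as 3.63% of all probes. None was called, where 0.0517% of all probes were. Lmod1 differed by -0.54 ± 0.14 (SE, limma adjusted p = 0.421). In 6 genes (Actg2, Tagln, Cnn1, Des, Smtn and Lmod1) every PCN array lay below every CONT array, as in 3.27% of all probes.

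The direction was the same in each wash bath. In bath 1 (CONT 3 and 4, PCN 2 and 3) the 10 genes differed by a median of -0.45, and in bath 2 (CONT 1, 2 and 5, PCN 1 and 4) by -0.35, with all 10 lower in both. At an unadjusted p under 0.05 were 5 genes in bath 1, against 5.11% of all probes lower, and 2 in bath 2, against 2.35%. Single arrays moved the number of genes at p under 0.05, from 6 to 2 without any one of Pxr-/- CONT 2, Pxr-/- CONT 4, Pxr-/- PCN 1 and Pxr-/- PCN 3 (3.57%, 3.51%, 3.62% and 2.95% of all probes lower, in that order), while all 10 genes stayed lower.

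**Figure D2:**
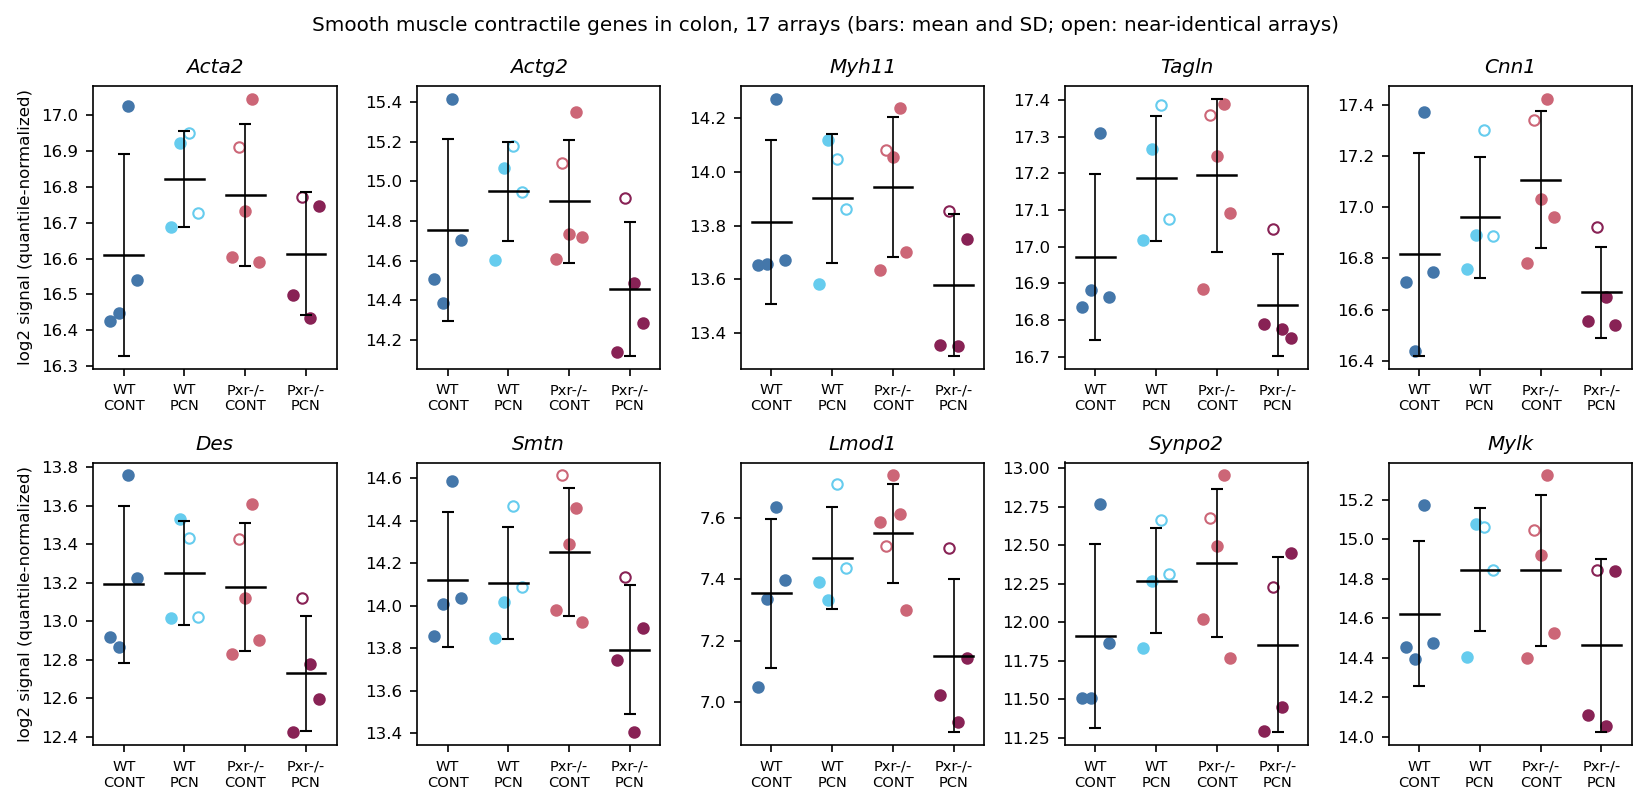
Quantile-normalized log2 signal of the 10 contractile genes on each array (points, in replicate order within a group), with the mean and SD of each group, and with the 4 near-identical arrays as open points. The Pxr-/- PCN group lies low in most panels, and its open point, PCN 2, is the highest or near the highest of that group, as for Tagln (17.05 against 16.75 to 16.79).

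In WT mice, no gene passed the test either. With PCN, 9 genes were higher and 1 (Smtn, -0.02) was lower, with a median of 0.15 on the log2 scale. Of all probes, 49.9% were higher. None was called by limma, as 0% of all probes were, and 0 of the 10 had an unadjusted p under 0.05, as 4.66% of all probes had. The largest difference was that of Synpo2, 0.34 ± 0.34 (SE), which was -0.00604 with the mean of all Synpo2 probes. Mylk differed by 0.19, or by -0.00844 with the mean of all its probes. Acta2 and Tagln had the smallest p-values.

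Acta2, the actin of vascular and visceral smooth muscle, was at 16.43, 16.45, 17.03 and 16.54 in WT CONT 2 to 5 and at 16.69, 16.92, 16.95 and 16.73 in WT PCN 1 to 4. The array CONT 4 was above every PCN array, and the other 3 controls were below them all. The difference was 0.21 ± 0.15 (SE, limma adjusted p = 0.956).

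Tagln was at 16.84, 16.88, 17.31 and 16.86 in WT CONT 2 to 5 and at 17.02, 17.27, 17.39 and 17.08 in WT PCN 1 to 4. CONT 4 exceeded all PCN arrays but PCN 3, and the other 3 controls again lay below them all. Its difference was 0.19 ± 0.13 (SE, limma adjusted p = 0.956). Without WT CONT 4, the median of the 10 genes was 0.32 and 3 genes had an unadjusted p under 0.05, against 4.26% of all probes higher, with 0 called. Of the 10 genes, 6 were higher without WT CONT 2, 5 without WT CONT 3 and 8 without WT PCN 3, and all 10 were without WT CONT 4 or WT PCN 1. WT CONT 4 is also the array richest in pancreatic transcripts (17.6).

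The direction in WT mice differed between the wash baths. In bath 1 (CONT 2 and 3, PCN 2, 3 and 4) all 10 genes were higher with PCN (median 0.43, 6 at an unadjusted p under 0.05, against 5.84% of all probes higher), and in bath 2 (CONT 4 and 5, PCN 1) all 10 were lower (median -0.40). The WT comparison in bath 2 rests on 1 PCN array. Without the near-identical arrays, 9 genes were higher, as 48.9% of all probes were, and the median was 0.08.

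**Figure D3:**
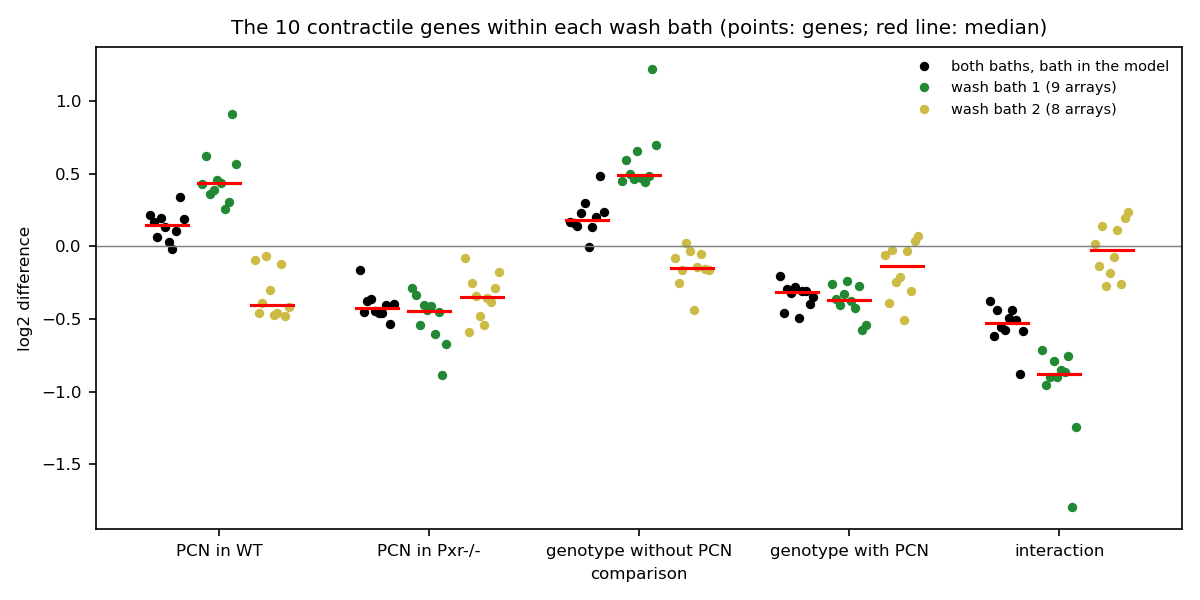
The log2 difference of each of the 10 contractile genes (points) and their median (red line) in 5 comparisons, over both baths and within wash bath 1 and wash bath 2. The points for PCN in Pxr-/- lie below 0 in both baths, and the medians for PCN in WT and for genotype without PCN lie on opposite sides of 0, at values of 0.43 and -0.40, and of 0.49 and -0.15.

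Between the genotypes without PCN, 9 genes were higher in Pxr-/- mice and Des differed by -0.00 ± 0.21 (SE, 95% interval -0.46 to 0.45). The median difference was 0.18, against 0.01 over all probes, 0 genes were called by limma (0% of all probes) and 0 had an unadjusted p under 0.05 (12.7% of all probes). Of all probes, 52.1% were higher in Pxr-/- mice. Cnn1 (0.30 ± 0.18) and Synpo2 (0.48 ± 0.32, SE) had the largest differences. In bath 1 all 10 genes were higher in Pxr-/- mice (median 0.49) and in bath 2, 9 were lower (median -0.15). At an unadjusted p under 0.05 were 7 genes in bath 1, against 6.88% of all probes higher. Without the near-identical arrays the median was 0.15, against 0.01 over all probes, and Des differed by -0.08 ± 0.23 (SE). There, 0 genes had an unadjusted p under 0.05, as 3899 of 38703 probes had. Without WT CONT 4 the median was 0.36 and 7 genes had an unadjusted p under 0.05 (8.57% of all probes higher), as 1 did without Pxr-/- CONT 1 (7% of all probes higher).

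Between the genotypes with PCN, all 10 genes were lower in Pxr-/- mice, by 0.21 (Acta2) to 0.49 (Des) on the log2 scale, with a median of -0.32, where 46.8% of all probes were lower. None was called by limma (0% of all probes), and 2 had an unadjusted p under 0.05, against 1.85% of all probes lower. These were Tagln (-0.32 ± 0.13) and Des (-0.49 ± 0.23, SE), both with a limma adjusted p of 1.00. Within bath 1 all 10 were lower (median -0.37) and within bath 2, 8 were (median -0.14). At an unadjusted p under 0.05 were 4 genes in bath 1, against 2.31% of all probes lower. Without the near-identical arrays, Actg2, Tagln, Cnn1, Des and Lmod1 did not overlap between WT PCN (n = 2) and Pxr-/- PCN (n = 3), as in 9.38% of all probes in that direction. The median was then -0.34, against 0.02 over all probes. Of the 10 genes, 1 had an unadjusted p under 0.05, as 2927 of 38703 probes had in either direction. The number at p under 0.05 became 0 without Pxr-/- PCN 3, Pxr-/- PCN 4 or WT PCN 3 (1.83%, 2.27% and 2.69% of all probes lower, in that order). It became 1 without Pxr-/- CONT 2, Pxr-/- PCN 1, WT CONT 5 or WT PCN 2 (1.74%, 1.35%, 1.74% and 1.24%), and 4 without Pxr-/- PCN 2 or WT CONT 4 (2.36% and 2.01%).

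The difference between the PCN responses of the genotypes was tested as an interaction, the response in Pxr-/- minus that in WT. It was below 0 for all 10 genes (median -0.53) and for 48.7% of all probes, none was called by limma (0% of all probes), and 3 had an unadjusted p under 0.05, against 2.95% of all probes below 0. These were Tagln (-0.56 ± 0.18), Lmod1 (-0.51 ± 0.20) and Cnn1 (-0.58 ± 0.27, SE), each with a limma adjusted p of 0.848. The median was -0.88 in bath 1, with 10 genes below 0, and -0.03 in bath 2, with 5. In bath 1, which holds 2 or 3 arrays a group, all 10 had an unadjusted p under 0.05, against 8.5% of all probes below 0. Without the near-identical arrays the median was -0.54, against 0.01 over all probes. There, 2 genes had an unadjusted p under 0.05, as 1143 of 38703 probes had in either direction. Without WT CONT 4 all 10 genes had an unadjusted p under 0.05, against 5.38% of all probes below 0, and the median was -0.69. Without Pxr-/- PCN 3, WT CONT 2 or WT PCN 3, 1 gene did, against 2.04%, 1.78% and 1.77% of all probes in that order. The 5 comparisons share arrays, so their results are not separate observations.

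**Figure D4:**
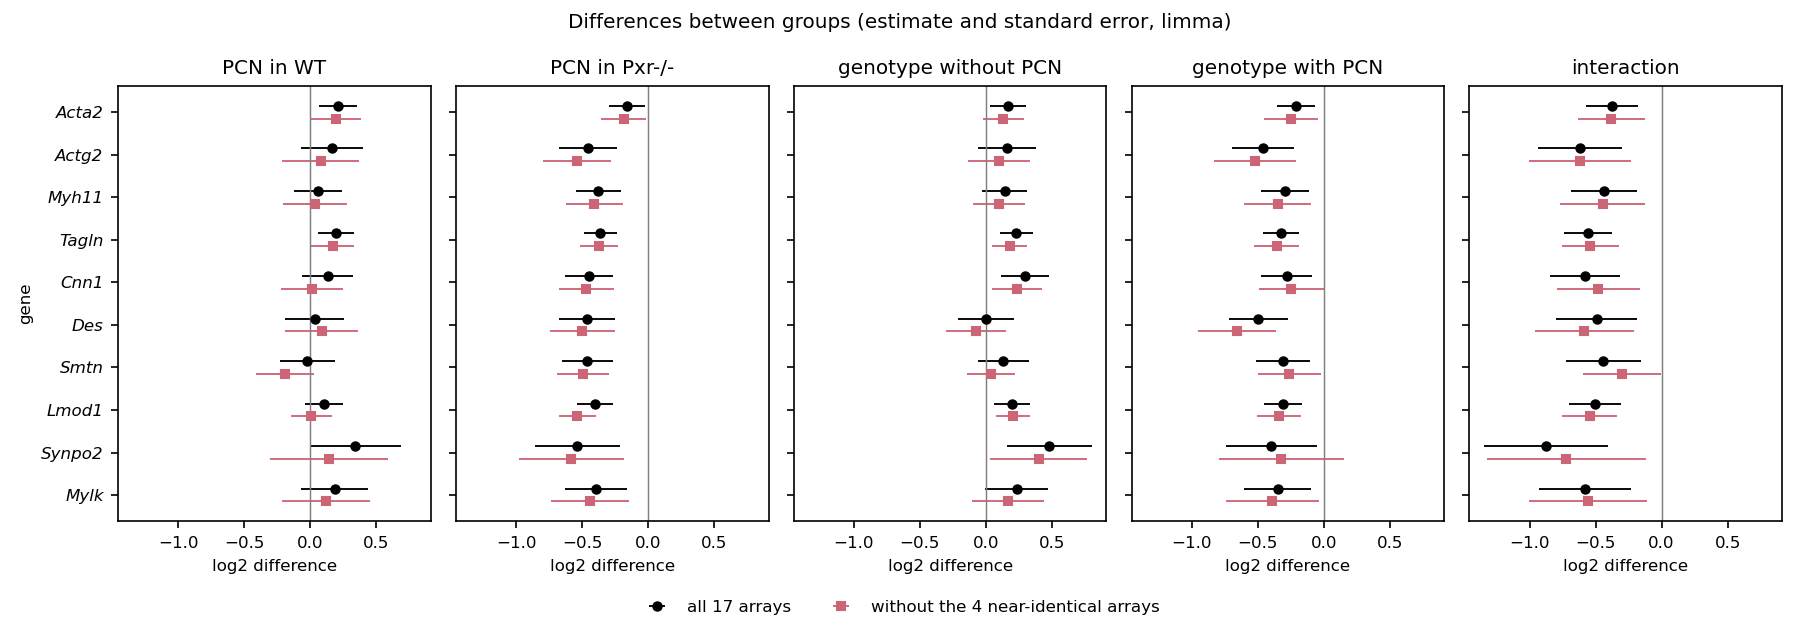
The log2 difference of each contractile gene with its standard error from the linear model, in 5 comparisons, with all 17 arrays (circles) and without the 4 near-identical arrays (squares). In PCN in Pxr-/- and in the interaction, every estimate lies below 0 in both sets, with medians of -0.42 and -0.48, and of -0.53 and -0.54.

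The other probes of the genes did not all run alike. The second probes of Smtn (r = 0.93 with the chosen probe over 17 arrays), Myh11 (0.92) and Mylk (0.98 and 0.91) followed the chosen ones closely. Of the other probes of Acta2, 1 that spans an intron had r = 0.35 and 1 for another transcript r = 0.04. A second Synpo2 probe had r = 0.33 and a second Des probe 0.37. Mylk probes for other transcripts had r = 0.25 and -0.82. With the mean of all probes of each gene, 0 genes were called in any comparison.

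Further smooth muscle genes were set beside the 10. A list of 42 further genes of the apparatus and its signalling had a mean signal that followed the mean of the contractile genes (r = 0.98 over 17 arrays, as a description), and one by one 33 of the 42 had r above 0 (median 0.67). The mean of 11 regulators had r = 0.90, but one by one 6 had r above 0 and 5 below, from Myocd (0.83) to Gata6 (-0.65). In Pxr-/- mice with PCN, 38 of the 42 were lower, 13 at an unadjusted p under 0.05, with a median of -0.19. Of all probes, 48% were lower and 3.95% were lower at that threshold. Without the near-identical arrays, 38 of the 42 were lower, 8 at that threshold, against 3.63% of all probes lower. None of the 42 was called in any comparison. Myl9, the regulatory light chain on which Mylk acts, differed by -0.37 ± 0.13 (SE, limma adjusted p = 0.573), and Tpm2, a tropomyosin, by -0.44 ± 0.16 (SE, limma adjusted p = 0.562). Cald1, the actin-binding caldesmon, differed by -0.12 ± 0.18, and Kcnmb1, a subunit of the calcium-activated potassium channel, by -0.16 ± 0.12 (SE).

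Acetylcholine drives contraction through muscarinic receptors. In Pxr-/- mice with PCN, Chrm3 differed by -0.996 ± 0.383 (SE, limma adjusted p = 0.598) and Chrm2 by -0.57 ± 0.19 (SE, limma adjusted p = 0.535). Without PCN, Chrm3 was higher in Pxr-/- than in WT mice by 1.38 ± 0.38 (SE, limma adjusted p = 0.231). Among the regulators, 6 of 11 were lower and 5 higher with PCN in Pxr-/- mice, where 48% of all probes were lower. The 2 regulators at an unadjusted p under 0.05 (3.95% of all probes lower) were Myocd and Fhl2, a coregulator that was named after its value was seen (-0.34 ± 0.12, SE, limma adjusted p = 0.580). Myocd differed by -0.48 ± 0.17 (SE, limma adjusted p = 0.573) and Srf by -0.15 ± 0.08 (SE, limma adjusted p = 0.740).

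Markers of other cells of the muscle wall were set beside the contractile genes. The mean signal of 8 enteric neuron genes followed theirs (r = 0.83), and in Pxr-/- mice with PCN all 8 were lower, 6 at an unadjusted p under 0.05, with 0 called. Of all probes, 48% were lower, 3.95% were lower at that threshold and 0.00517% were called. Without the near-identical arrays all 8 were lower, 5 at that threshold, against 3.63% of all probes lower. Elavl4, a neuronal RNA-binding protein, differed by -0.39 ± 0.11 (SE, limma adjusted p = 0.428). The list mean was 8.92 to 9.39 in Pxr-/- CONT and 8.50 to 8.94 in Pxr-/- PCN. The list means of pericytes and vascular muscle (r = 0.75) and of interstitial cells of Cajal, the pacemaker cells (r = 0.61), followed less closely. Of the 5 genes for interstitial cells of Cajal, Kit had r = 0.62 and Ano1 r = -0.58. Of the 8 genes of pericytes and vascular muscle, 3 had r below 0. The colon epithelium had r = 0.57, fibroblasts -0.10 and endothelium -0.57. For glia r was 0.48, for adipocytes 0.37, for striated muscle 0.27, for mesothelium 0.24 and for liver -0.20. One by one, 6 of the 10 epithelium genes had r above 0 and 4 below (median 0.10, from -0.78 to 0.82). No gene of any of these lists was called in any of the 5 comparisons, with all arrays or without the near-identical ones. Pancreatic transcripts had r = 0.57 with the contractile genes. Without the 4 arrays richest in them, all 10 genes were lower with PCN in Pxr-/- mice (median -0.38, 6 at an unadjusted p under 0.05, against 3.98% of all probes lower). The same omission moved the number at that threshold from 0 to 4 for the genotypes without PCN (6.99% of all probes higher), from 2 to 0 with PCN (1.57% lower) and from 3 to 6 for the interaction (4.18% below 0). Of the 12 striated muscle markers, 6 were well above the background on all 17 arrays and 3 (Myh1, Mb and Xirp2) on none. One by one, 4 of the 9 that were tested had r above 0 and 5 below, from Ckm (0.83) to Tnni2 (-0.61).

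**Figure D5:**
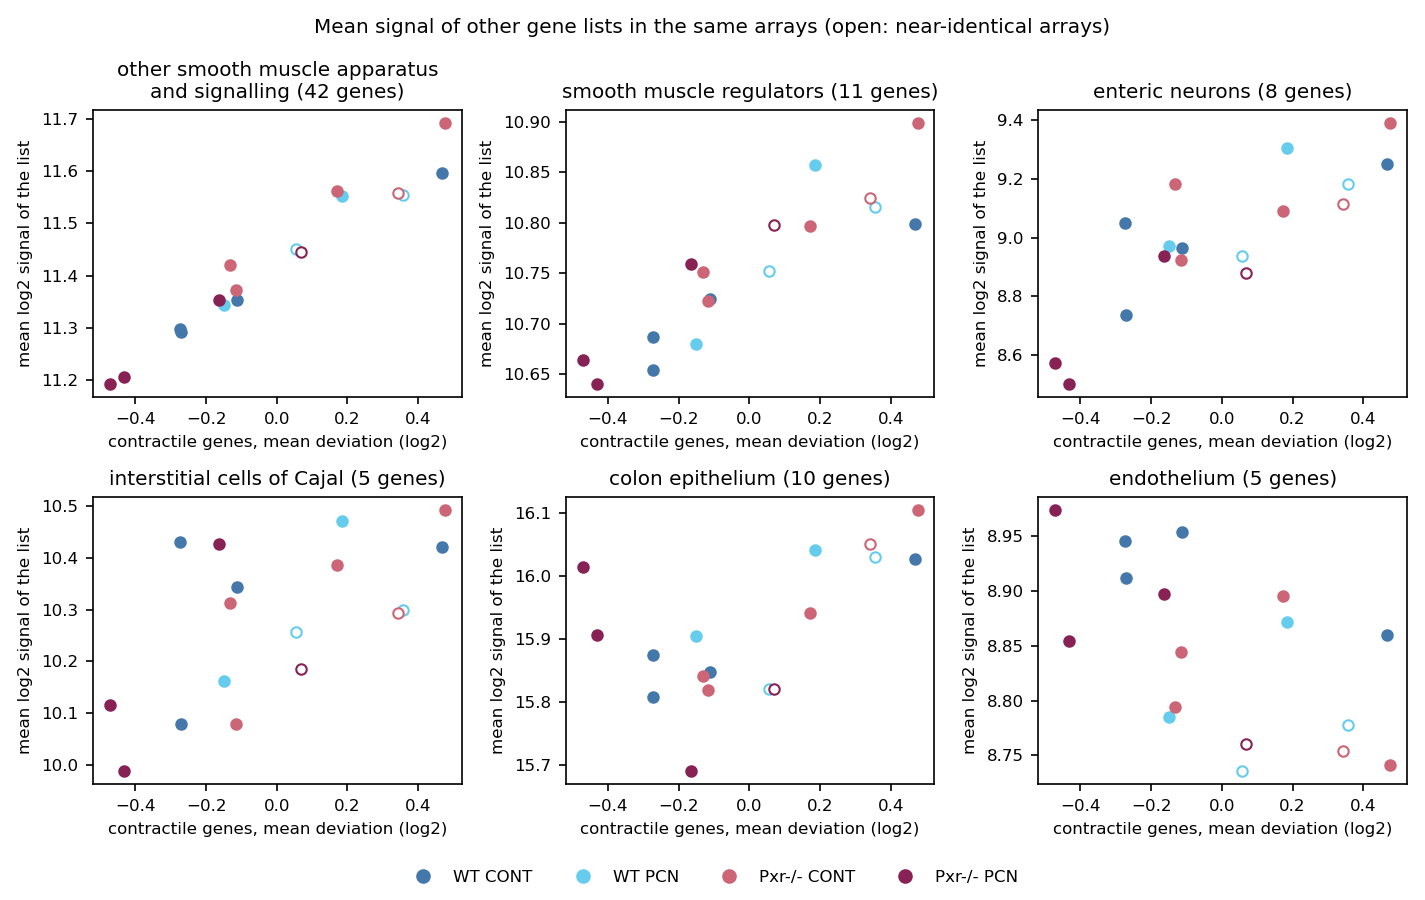
Mean log2 signal of 6 gene lists (vertical axes) against the mean log2 deviation of the 10 contractile genes (horizontal axes) on the 17 arrays, coloured by group, with the near-identical arrays open. The mean of the other smooth muscle genes is higher on arrays where the contractile genes are (r = 0.98), as is that of enteric neurons (0.83), and that of endothelium is lower there (-0.57).

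Among 23719 genes ranked by the Pearson r of their signal with the mean of the contractile genes over 17 arrays, the 10 most like were Stum, Popdc2, Flna, Pdlim3, Slc6a17, Rgs1, Akap6, Myl9, Raver2 and Dmpk (r = 0.97 to 0.94). Of these, 5 were also among the 10 most like over the 13 arrays. Flna (an actin cross-linker), Pdlim3 and Myl9 are on the list of the apparatus. Of 49 listed smooth muscle genes, 17 had r above 0.8, as did 1.42% of all genes. The 5 least like with a gene symbol were Mab21l4, Gja4, Pag1, Smim24 and BC051077, down to r = -0.92.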

How the data were processed

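The authors hybridized Cy3-labelled colon RNA to 1-colour Agilent Sureprint G3 Mouse arrays and deposited the output of Agilent Feature Extraction 10.10.1.1, in which each spot has an intensity that is not normalized between arrays. The authors also deposited a table of processed log2 values, which chose the probe of each gene. The article reports livers from the same mouse design, and its normalization was not repeated here. Here, the log2 of the median intensity of 59305 non-control spots, without outlier spots, was quantile-normalized and averaged to 56605 probes, of which 38703 stood well above background on 4 or more arrays and were tested. Groups and bath entered a linear model of all 17 arrays (limma 3.58.1, R 4.3.3), with Benjamini-Hochberg adjustment over all probes. Calls needed an adjusted p of 0.05 or less and a fold change above 1.5. The fit was tested on simulated data. The number of arrays limits the precision. Groups and replicate numbers came from the labels, which do not name the mouse behind each array, so p-values measure the spread between these samples. The members, the gene lists and the rule for named genes were chosen with earlier results of these data known. That rule names the 10 members, 8 further smooth muscle genes, markers of other cells and the genes most and least like the members. Same-numbered samples of different groups were not uniformly alike (r from -0.33 to 0.49, above 0.1 in 11 of 22 pairs). Differently numbered samples were not compared in this way, so whether the numbers mark a pairing cannot be told. The alternatives were other values and background corrections, filters, batch terms, each bath alone, arrays left out, variance models and the mean of all probes. Probe coordinates are mm9, and promoter sequences are RefSeq's (GRCm38.p6). Results for some of the genes that the rule names are not reported here.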

Additional observations from a re-analysis of the deposited data

Results flagged for a closer look

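Of 40 groups of values (10 contractile genes in 4 groups), 4 held an array far from the others by Dixon's test, where chance gives about 1 in 20 for independent groups. The contractile genes move together, and Myh11, Tagln and Mylk were flagged on the same array. These groups are therefore not independent, and that rate cannot be set against the count. In WT CONT 4, Myh11 was at 14.27 (next 13.67), Tagln at 17.31 (next 16.88) and Mylk at 15.17 (next 14.47) on the log2 scale. In Pxr-/- PCN 2, one of the near-identical arrays, Tagln was at 17.05 (next 16.79). WT CONT 4 also held the most pancreatic transcripts, whose part in these values was not tested.

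For Acta2 and Tagln, every WT PCN array lay above the mean of WT CONT and every Pxr-/- PCN array below the mean of Pxr-/- CONT. For Acta2 this was narrow, since the near-identical array Pxr-/- PCN 2 was at 16.7723 against a Pxr-/- CONT mean of 16.7765. The share of all probes with this pattern was not counted. The difference between the responses was -0.37 for Acta2 (limma adjusted p = 0.848) and -0.56 for Tagln (limma adjusted p = 0.848), so neither passed the test.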

How the results depend on the processing

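In the 5 comparisons, 0 of the 10 contractile genes were called in each of 36 alternatives (35 for the interaction). Their smallest limma adjusted p was 0.0693, for the genotypes without PCN with array weights. Without the near-identical arrays, 19 of 38703 probes were called for PCN in WT and 20 for PCN in Pxr-/-. For the genotypes without PCN 0 were, with PCN 8 and for the interaction 1. The share of all probes called in the other alternatives is not given here. The median difference for PCN in Pxr-/- mice lay below 0 in 35 of 35 alternatives (-0.522 to -0.308), and 0 of its 350 gene values changed sign. That between the genotypes with PCN also lay below 0 in 35 of 35 (-0.444 to -0.139).

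Within single baths other medians moved. For PCN in WT the median was 0.433 in wash bath 1 and -0.405 in bath 2, for the genotypes without PCN 0.488 and -0.149, and for the interaction -0.882 and -0.0278. For PCN in WT in bath 2, Acta2 was at -0.0959, Actg2 -0.459, Myh11 -0.391, Tagln -0.0690, Cnn1 -0.301, Des -0.472, Lmod1 -0.125, Synpo2 -0.482 and Mylk -0.418, and in bath 1 Smtn was at 0.258, all with the opposite sign. For the genotypes without PCN in bath 2, Acta2 was at -0.0806, Actg2 -0.254, Myh11 -0.165, Cnn1 -0.0315, Smtn -0.141, Lmod1 -0.0517, Synpo2 -0.158 and Mylk -0.166. For the genotypes with PCN in bath 2, Synpo2 was at 0.0383 and Mylk at 0.0720. For the interaction in bath 2, Acta2 was at 0.0168, Myh11 0.138, Smtn 0.110, Synpo2 0.196 and Mylk 0.238. The bath 2 fits hold fewer samples, with 1 WT PCN array, and the cause of the turned signs was not tested.

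Other differences also changed sign. Smtn for PCN in WT was at 0.0199 with the scanner's processed signal, 0.0566 with the replicate block, 0.000792 with only the groups compared, 0.0454 without the 4 arrays richest in pancreatic transcripts and 0.0938 with array weights. With the mean of all probes, Synpo2 (0.34 with the chosen probe) was at -0.00604 and Mylk (0.19) at -0.00844. Des for the genotypes without PCN was at 0.00493 with the authors' processed values, 0.0587 with the scanner's processed signal, 0.00428 with outlier spots kept, 0.0474 with the slide as a block, 0.471 in bath 1, 0.0590 with the replicate block, 0.157 without the pancreas-rich arrays, 0.0787 with array weights and 0.175 with the mean of all probes. The cause was not tested.

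With each array left out in turn, the range for PCN in WT was -0.0127 to 0.394 for Actg2, -0.0294 to 0.226 for Myh11, -0.0339 to 0.317 for Cnn1, -0.124 to 0.231 for Des, -0.136 to 0.129 for Smtn and -0.0281 to 0.199 for Lmod1, and for the genotypes without PCN it was -0.135 to 0.236 for Des. Medians then ranged from 0.0249 to 0.316 for PCN in WT, -0.522 to -0.325 for PCN in Pxr-/-, 0.0945 to 0.358 for the genotypes without PCN, -0.444 to -0.215 with PCN and -0.692 to -0.432 for the interaction.

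The replicate numbers share no known pairing. With the replicate block, 9 genes for PCN in Pxr-/-, 5 for the genotypes with PCN and 8 for the interaction had an unadjusted p under 0.05 (against 6, 2 and 3), with medians of -0.444, -0.379 and -0.627, and 0 were called. Of all probes, 4.22%, 2.55% and 5.25% were below 0 at that threshold with the block, in that order. Without the block these shares were 3.95%, 1.85% and 2.95%. With 4 or 5 arrays a group, the number of arrays limits what could be detected.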
